A study of Oryza sativa with 45 samples.

Results

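Auxin switches genes on by removing their repressors. Aux/IAA proteins sit on auxin response factors (ARFs), which bind auxin response elements in promoters, and keep the target genes silent together with TOPLESS-type corepressors; auxin joins an Aux/IAA to a TIR1 or AFB receptor, the Aux/IAA is degraded, and the ARF is set free. GH3 enzymes close the loop, since they are switched on by auxin and join the hormone to amino acids, while a second branch of the family, kin of Arabidopsis JAR1, makes the active jasmonate conjugate. In young seedlings these genes are best known for their part in root branching, root elongation and leaf growth.

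The genes described here were the Aux/IAA (OsIAA), ARF (OsARF) and GH3 (OsGH3) genes that carry such a number in the reference and had a probe set of their own. They were 56 genes in 56 probe sets of the 54922 on the array. They were chosen by name in the array annotation and the RefSeq rice annotation. The name rule made no use of their signals, though earlier results of these data were known. Of these genes, 28 were Aux/IAA, 19 were ARF and 9 were GH3. The name rule found 60 genes in the reference, and the 4 without a probe set of their own, OsARF6, OsARF19, OsARF21 and OsARF25, were not analysed here. All 4 belong to the ARFs with a glutamine-rich middle region that activate transcription. The rule misses any gene that the reference does not name this way, and the activator OsARF11 was not among those found. The genes analysed held 4 activator ARFs beside 15 repressor ARFs. Among the 9 GH3 genes, 2 were of group I, the kin of JAR1, and 7 of group II, the auxin-conjugating enzymes. The rice numbering is not unique, and a few genes carry a second number in the reference.

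The study measured mRNA of whole seedlings of Oryza sativa ssp. japonica cv. Nipponbare on Affymetrix gene arrays to ask how far a transgenic line, a line that had lost its transgene and a control drift apart over generations, and how that compares with salt stress. Line Ta carried 1 copy of OsICE1, a transcription factor of the cold response, fused to a TAP tag under the maize ubiquitin promoter, with hygromycin resistance; line NSb was a negative segregant from a different transformant, whose OsICE1 transgene had no TAP tag and was lost; line C was a control grown from seed. Each array held a pool of 10 seedlings aged 15 days, with 3 pools for each of 15 conditions, 45 arrays in all: Ta, NSb and C under salt in generation F6 (12 dS/m for 12 days) and without salt in F4, F6 and F8, and in F8 also descendants of the salted F6 plants, called salt history below, which were not salted themselves. Each line is a single line, so a property of Ta cannot be told apart from one of transgenesis in general, and the pools are whole plants, so that fewer cells of a type and less RNA per cell cannot be told apart.

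Values are the deposited log2 signals, on which a difference of 1 is a doubling. A probe set's signal depends on its own sequence, so each gene is compared only with itself. Array medians were 4.461 to 4.504 in F4, 4.142 to 4.223 in F6 and 4.53 to 4.581 in F8, so levels are compared within a generation or as differences between lines. The probe set of OsICE1 read 8.82 to 9.27 on the 6 Ta arrays of F6, against 4.37 to 5.56 on the 12 NSb and C arrays, and separated Ta from the other lines in F4 and F8 as well. Auxin response genes spanned signals of 1.46 (OsIAA29) to 11.47 (OsIAA17), both named here after their values were seen; 36 of the 56 were above the array median on all 45 arrays and 7 were below it on all 45, where a signal may be little more than background and a difference may understate a change. The median SD between pools in F6 was 0.108 for these genes. A gene is called when the Benjamini-Hochberg adjusted p of limma's moderated test, over all probe sets, was under 0.05. The 3 pools of a condition are not said to come from separate cultures, so what a p-value weighs is the scatter of these pools only; the number of arrays limits the precision.

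Growth at 12 dS/m lowered the signal of many Aux/IAA and repressor ARF genes. Of the 9 GH3 genes, 3 were called higher and 1 lower, with a median difference of −0.06. Averaged over the 3 lines (9 salted and 9 unsalted arrays of F6), 28 of the 56 genes were lower under salt and 5 were higher. Of all probe sets, 11.7% were called lower and 15.2% higher; among the 24080 probe sets with 1 gene symbol the shares were 18.7% and 21.2%. The median difference was −0.17 for the 56 genes and −0.01 for all probe sets. The changes were small, 1.11-fold to 1.79-fold for the called genes, and none reached 3-fold, as 0.452% of all probe sets did.

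**Figure D1:**
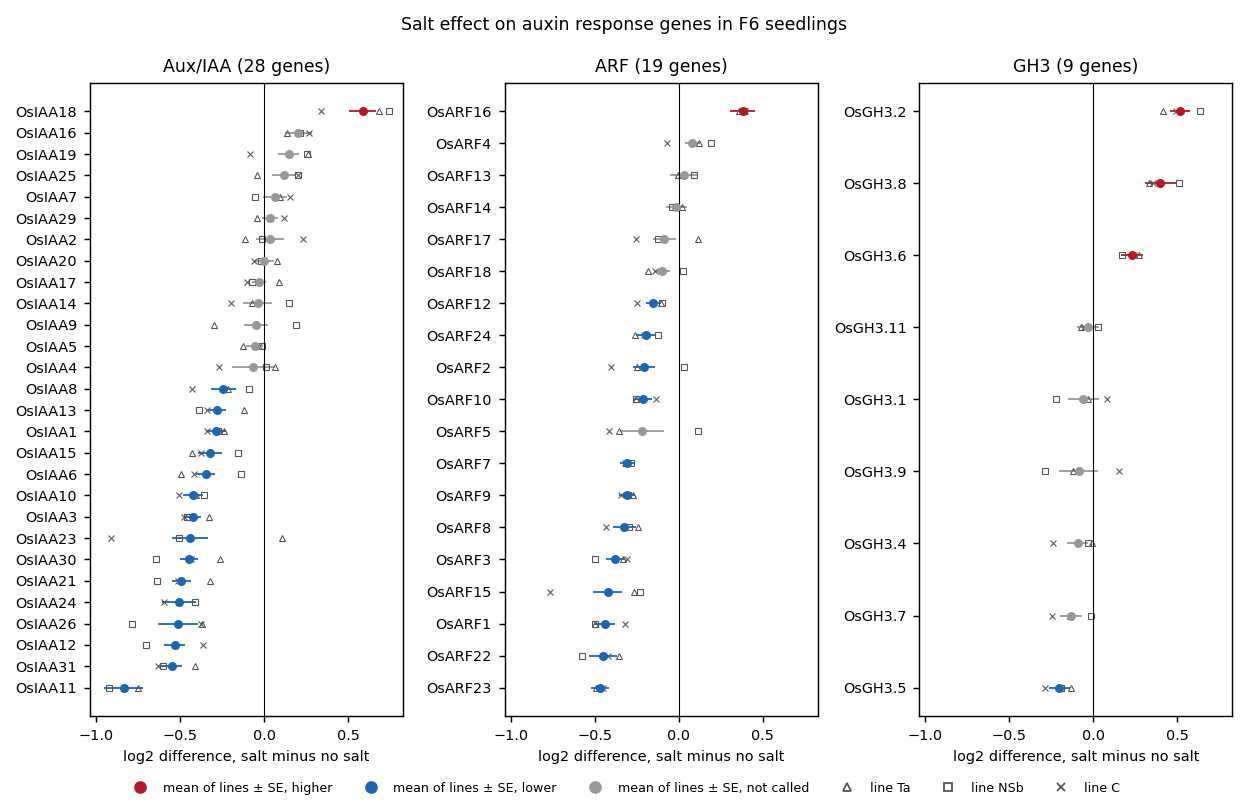
log2 difference between salted and unsalted F6 seedlings for each of the 28 Aux/IAA, 19 ARF and 9 GH3 genes (vertical axis). Filled circles are the mean of the 3 lines with its SE, red where called higher, blue where called lower and grey where not called; triangles, squares and crosses are lines Ta, NSb and C. Most Aux/IAA and ARF genes lie left of 0, from −0.84 for OsIAA11, while OsIAA18, OsARF16 and OsGH3.2 head their families on the right.

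The families differed in their make-up. Of the 28 Aux/IAA genes, 15 were lower, 1 was higher and 12 were not called, with a median of −0.26. Of the 15 repressor ARFs, 11 were lower, none was higher and 4 were not called, with a median of −0.31. The 4 activator ARFs were divided into 1 lower, 1 higher and 2 not called. The 7 auxin-conjugating GH3 genes held 2 that were higher and 5 not called, and of the 2 group I genes 1 was higher and 1 lower. Whether families differed from one another was not tested.

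**Figure D2:**
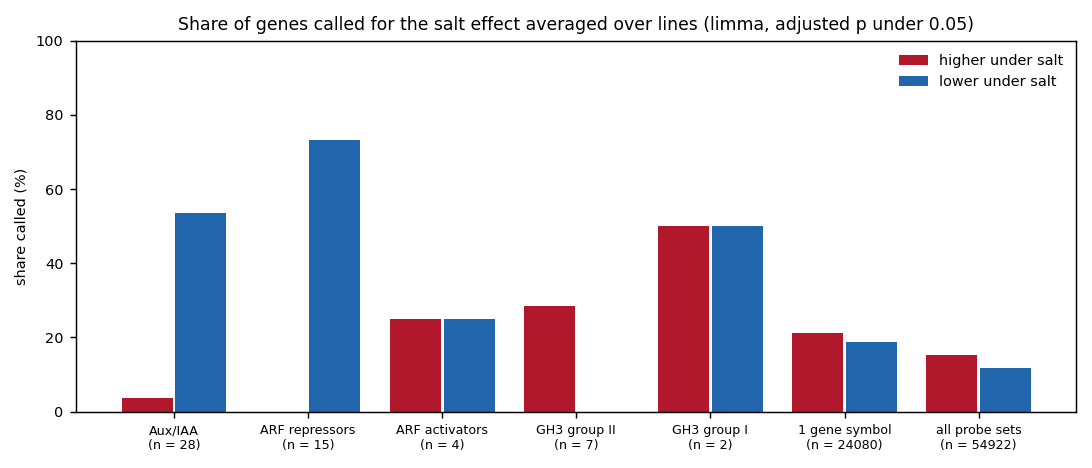
Share of genes called higher (red) or lower (blue) under salt, averaged over lines, for the subgroups of auxin response genes and, at the right, for all probe sets with 1 gene symbol and for all probe sets of the array; the vertical axis is the percentage of each group and n is its size. Called lower were 53.6% of Aux/IAA and 73.3% of repressor ARF genes, against 18.7% of probe sets with 1 gene symbol and 11.7% of all.

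Among the Aux/IAA repressors the strongest change was in OsIAA11, a gene whose stabilised mutant form blocks lateral root formation in rice. It read 4.54, 4.38 and 4.85 in salted Ta against 5.37, 4.89 and 5.78 in unsalted Ta; 4.29, 4.64 and 4.54 in salted NSb against 5.38, 5.31 and 5.56 in unsalted NSb; and 4.94, 4.37 and 4.33 in salted C against 5.42, 5.31 and 5.41 in unsalted C. All 9 salted pools lay below the unsalted mean of their own line, and only the highest salted C pool crossed the lowest unsalted Ta pool. The averaged difference was −0.84 (SE 0.115, limma adjusted p = 4.20e-05), a 1.79-fold lower signal.

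OsIAA11 and its neighbour in the genome OsIAA12, with no protein-coding gene between them, were both lower, as were the neighbours OsIAA30 and OsIAA31. OsIAA12 ranged over 6.09 to 6.54 in salted pools (median 6.25), against 6.55 to 7.05 in unsalted pools (median 6.80), with a difference of −0.53 (SE 0.0626, limma adjusted p = 8.63e-06). OsIAA30 ranged over 6.29 to 6.79 (median 6.53) under salt and 6.85 to 7.13 (median 6.93) without it, a difference of −0.45 (SE 0.0552, limma adjusted p = 1.44e-05). For OsIAA31 the salted range was 3.92 to 4.39 (median 4.25) and the unsalted range 4.61 to 4.86 (median 4.77), a difference of −0.55 (SE 0.0632, limma adjusted p = 6.77e-06); its salted signals lay at about the array medians. Salted and unsalted pools did not overlap for any of these 3 genes, whatever the line.

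OsIAA21 and OsIAA3 changed as cleanly. OsIAA21 read 6.74 to 7.33 (median 6.96) in salted and 7.36 to 7.54 (median 7.50) in unsalted pools, a difference of −0.49 (SE 0.0562, limma adjusted p = 6.23e-06). OsIAA3 read 8.04 to 8.34 (median 8.16) in salted and 8.50 to 8.66 (median 8.55) in unsalted pools, and its difference of −0.42 (SE 0.0459) had the smallest adjusted p of the 56 genes, 3.59e-06 in limma. Salted and unsalted pools stayed apart in both genes.

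OsIAA24, OsIAA26 and OsIAA23 were lower on average but less even. OsIAA24 differed by −0.51 (SE 0.102, limma adjusted p = 0.00136), with 4.64 to 5.46 under salt and 5.23 to 5.79 without it. OsIAA26 differed by −0.51 (SE 0.12, limma adjusted p = 0.00421), with 3.19 to 3.88 under salt and 3.44 to 4.61 without it, signals that lay mostly under the array medians. OsIAA23, whose stabilised mutant form disturbs the quiescent centre of rice roots, differed by −0.44 on average (SE 0.108, limma adjusted p = 0.00588), and most of that came from C and NSb. It read 4.47, 4.38 and 4.60 in salted Ta against 4.11, 4.68 and 4.35 in unsalted Ta, where the pools overlapped; 4.02, 4.25 and 4.54 in salted NSb against 4.57, 4.62 and 5.16 in unsalted NSb; and 4.43, 4.10 and 4.21 in salted C against 4.92, 5.12 and 5.44 in unsalted C. The differences were +0.10 in Ta, −0.51 in NSb and −0.91 in C, and the salt effect in Ta minus that in C was +1.02 (SE 0.264, limma adjusted p = 0.401), so a difference between lines did not pass the test.

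The exception among Aux/IAA genes was OsIAA18, which has been linked to salt and drought tolerance in rice overexpressing it. It was higher under salt by 0.59 (SE 0.0802, limma adjusted p = 3.75e-05). Its pools read 5.44, 5.69 and 5.76 in salted Ta against 4.88, 5.09 and 4.87 in unsalted Ta, 5.48, 5.52 and 5.54 in salted NSb against 4.94, 4.71 and 4.66 in unsalted NSb, and 5.26, 5.33 and 5.38 in salted C against 4.75, 4.83 and 5.37 in unsalted C. In C, replicate 3 without salt stood as high as the salted pools, and the difference there was 0.34, against 0.68 in Ta and 0.74 in NSb. That array also stood off from unsalted C replicates 1 and 2 in other genes. It lay above them in OsARF5 (7.74 against 6.88 and 6.53), named here after its values were seen, and below them in OsARF23 (8.34 against 8.55 and 8.52). Its median was 4.21, against 4.14 on each of them, and it enters every salt difference in C.

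**Figure D3:**
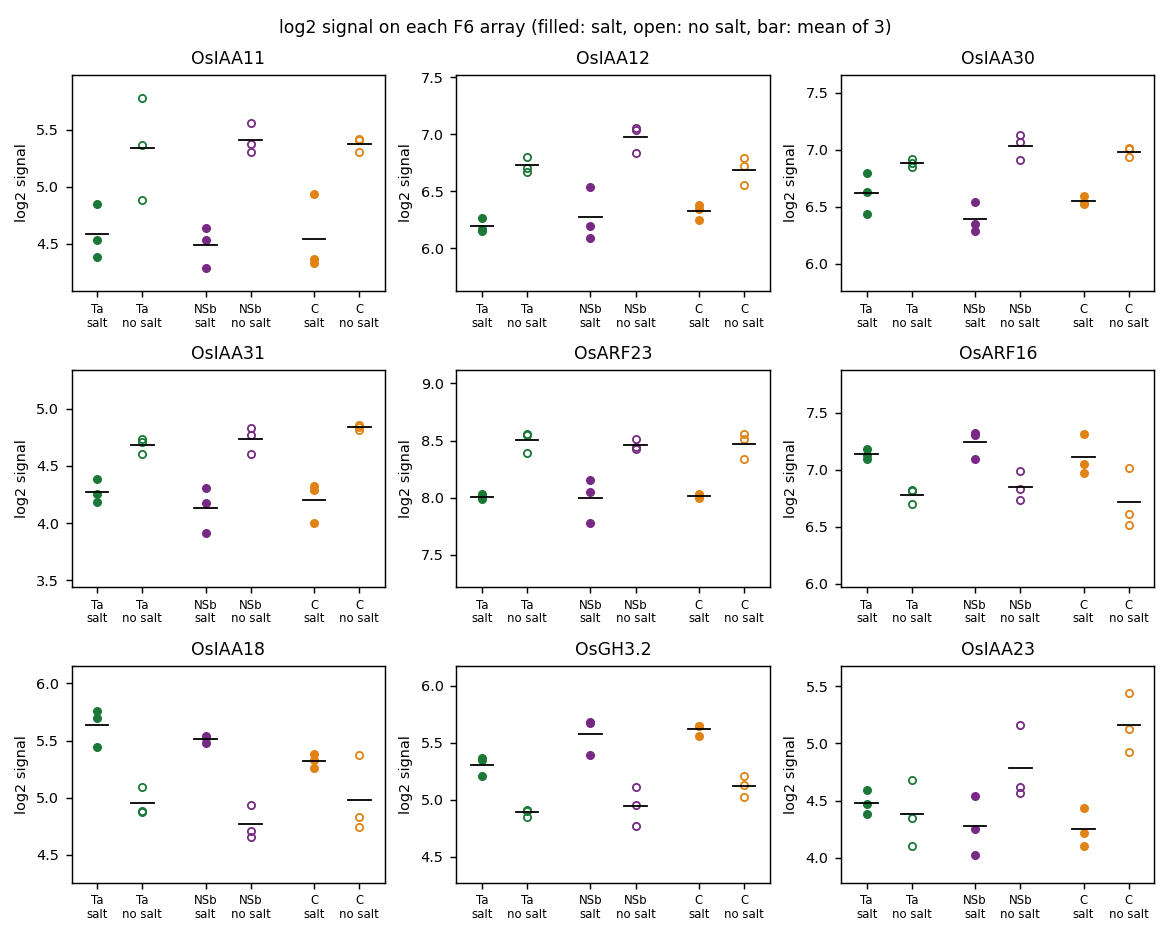
log2 signal of 9 auxin response genes on each of the 18 F6 arrays (vertical axis, each panel spanning the same range of 1.9), with salted pools filled and left of the unsalted pools of the same line, and bars for the mean of 3. OsIAA11, OsIAA12, OsIAA30, OsIAA31 and OsARF23 fall under salt in each line, OsARF16, OsIAA18 and OsGH3.2 rise, and OsIAA23 falls in C and NSb but reads 4.38 to 4.60 under salt and 4.11 to 4.68 without it in Ta.

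Of the 15 repressor ARFs, 11 were lower under salt and none was higher. OsARF23, known with OsARF24 for driving the gene of an actin-organising formin in rice roots, read 8.01, 8.03 and 7.99 in salted Ta against 8.55, 8.56 and 8.39 in unsalted Ta; 8.05, 7.78 and 8.15 in salted NSb against 8.45, 8.51 and 8.42 in unsalted NSb; and 8.03, 8.02 and 8.0 in salted C against 8.55, 8.52 and 8.34 in unsalted C. No salted pool reached an unsalted one, and the difference of −0.47 (SE 0.0544, limma adjusted p = 7.09e-06) was nearly equal in the lines, at −0.49 in Ta, −0.47 in NSb and −0.45 in C. Its partner OsARF24, named here after its values were seen, was lower by a smaller amount, −0.19 (SE 0.0584, limma adjusted p = 0.0203). OsARF22, a target of miR160, read 5.15 to 5.56 under salt and 5.49 to 6.15 without it, a difference of −0.45 (SE 0.0836, limma adjusted p = 0.000662). OsARF1 read 5.39 to 5.77 under salt and 5.81 to 6.17 without it, a difference of −0.44 (SE 0.0621, limma adjusted p = 5.34e-05), and its salted and unsalted pools did not overlap.

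Small RNAs restrain several ARFs, and no test set their targets against the rest of the family. Called lower were 3 of the 4 targets of miR160 measured here and 3 of the 4 targets of tasiR-ARF, the small RNAs made from TAS3 transcripts. None was called higher. All targets of these 2 kinds were repressor ARFs, a class in which 11 of 15 (73.3%) were called lower. The share was 11.7% of all probe sets and 18.7% of those with 1 gene symbol. Of the 2 measured targets of miR167, both activators, 1 was called lower, OsARF12, at −0.15 (SE 0.0447, limma adjusted p = 0.0182), named here because it is the only activator called lower.

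The other called activator, OsARF16, went the other way. Known in rice for its part in the responses to auxin and to phosphate shortage, it read 7.18, 7.13 and 7.10 in salted Ta against 6.70, 6.81 and 6.83 in unsalted Ta, 7.33, 7.30 and 7.09 in salted NSb against 6.74, 6.99 and 6.83 in unsalted NSb, and 7.31, 6.97 and 7.05 in salted C against 7.02, 6.52 and 6.62 in unsalted C. Salted pools were above the unsalted mean of their line in 9 of 9 cases, and overlapped with unsalted pools only in C. The difference was +0.38 (SE 0.072, limma adjusted p = 0.0008), with 0.36 in Ta, 0.39 in NSb and 0.40 in C.

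The GH3 enzymes held 3 of the 5 genes that were higher under salt. These were 33.3% of the 9 GH3 genes, where 21.2% of probe sets with 1 gene symbol and 15.2% of all probe sets were called higher. Whether GH3 genes exceeded these shares was not tested. OsGH3.2, an auxin-conjugating enzyme whose overexpression in rice alters tolerance of drought and cold, read 5.35, 5.21 and 5.37 in salted Ta against 4.85, 4.91 and 4.90 in unsalted Ta; 5.67, 5.68 and 5.39 in salted NSb against 4.77, 4.95 and 5.11 in unsalted NSb; and 5.56, 5.65 and 5.65 in salted C against 5.03, 5.13 and 5.21 in unsalted C. Within each line the salted pools lay above the unsalted pools, and the difference was +0.52 (SE 0.0577, limma adjusted p = 5.06e-06). OsGH3.8, the auxin-conjugating enzyme known from bacterial blight resistance, read 4.86 to 5.48 under salt (median 5.05) and 4.38 to 4.98 without it (median 4.76), with 8 of 9 salted pools above the unsalted mean of their line and a difference of +0.40 (SE 0.0899, limma adjusted p = 0.00315). OsGH3.6 of group I read 4.73 to 5.13 (median 4.80) and 4.35 to 4.78 (median 4.65), a difference of +0.23 (SE 0.0651, limma adjusted p = 0.0154). OsGH3.5, also known as OsJAR1, the enzyme that makes jasmonoyl-isoleucine and the only GH3 gene called lower, is named here after its values were seen; it read 8.76 to 9.03 under salt and 8.83 to 9.53 without it, a difference of −0.20 (SE 0.0632, limma adjusted p = 0.0243). The 5 other GH3 genes lay between −0.13 and −0.03.

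Line by line, the fall was seen in the transgenic, the negative segregant and the control seedlings. In Ta, 13 genes were lower and 2 higher (all probe sets: 4.24% and 6.26%); in NSb, 15 lower and 4 higher (6.09% and 9.34%); in C, 19 lower and 1 higher (4.54% and 5.14%). Called lower in each of the 3 lines were 9 genes, against 2.0% of all probe sets: OsARF7, OsARF9, OsARF23, OsIAA3, OsIAA10, OsIAA11, OsIAA12, OsIAA21 and OsIAA31, where OsARF7, OsARF9 and OsIAA10 are named after their values were seen. Called higher in each line was OsGH3.2 alone of these genes, against 3.16% of all probe sets. Whatever the test, 29 of the 56 had a lower mean under salt in each line and 6 a higher one (51.8% and 10.7%). The shares were 25.7% and 24.9% of all probe sets, and 30.5% and 30.3% of those with 1 gene symbol. Counts called within a line were not set against the probe sets with 1 gene symbol. In 8 genes no salted pool of any line reached an unsalted pool from below (2.47% of all probe sets), and in none did all salted pools exceed all unsalted ones (3.89%).

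The counts within a line depended on single pools. In C, 10 genes were called without salted replicate 3, and 4 when only the C arrays entered the fit; in Ta, 6 were called without salted replicate 1 and 8 or 9 without salted replicate 3 or any 1 of the unsalted replicates. The averaged count stayed at 32 to 35 when any 1 of the 18 arrays was left out.

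The salt effect was not shown to differ between lines for any of the 56 genes. The interaction tests (limma) called 0 of 56, where 0.00546% of all probe sets were called in at least 1 of the 3 comparisons. At an unadjusted p under 0.05 the counts were 4 for Ta minus C, 5 for NSb minus C and 5 for Ta minus NSb, or 7.14%, 8.93% and 8.93% of these genes against 7.0%, 7.84% and 6.64% of all probe sets. The largest of these differences was that of OsIAA23.

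Other steps of the auxin pathway were measured by few named genes. For comparison, 18.7% of probe sets with 1 gene symbol were called lower under salt and 21.2% higher. No test set these short lists against those shares. Of 3 corepressor genes, 1 was lower, OsTPR2, a TOPLESS-related corepressor (−0.30, SE 0.0498, limma adjusted p = 0.000223), while TPR3 (+0.04) and ASP1 (−0.01) were not called. Neither of 2 auxin synthesis genes was called, FIB, a tryptophan aminotransferase, at −0.15 and OsYUCCA1 at −0.05. Of 6 genes of the PIN family of auxin carriers, 3 were lower and 1 was higher: OsPIN5a differed by −0.43 (SE 0.0625, limma adjusted p = 7.27e-05), OsPIN5 by −0.47 (SE 0.0948, limma adjusted p = 0.0013), OSPIN10a by −0.26 (SE 0.0869, limma adjusted p = 0.0358) and OsPIN4 by +0.40 (SE 0.0691, limma adjusted p = 0.000393). OsPIN5 and OsPIN4 had mean signals under 3, well below the array medians.

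Among probe sets with 1 gene symbol, 21.2% were called higher under salt and 18.7% lower. Of 8 genes that inactivate auxin or release it from conjugates, 3 were higher and none lower. These were ILL5 (+0.34, SE 0.0528, limma adjusted p = 0.000134) and ILL7 (+0.35, SE 0.0714, limma adjusted p = 0.00154), amidohydrolases of the type that frees auxin from amino acids, and DAO (+0.19, SE 0.0523, limma adjusted p = 0.0143), which oxidises it. The only named SAUR gene, SAUR39, did not pass the test (−0.27, SE 0.112, limma adjusted p = 0.089), nor did the crown root gene OsWOX11 (+0.05).

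Markers of organs and of dividing cells were read beside these genes, since auxin response genes differ between organs. Called lower under salt were 18.7% of probe sets with 1 gene symbol, and called higher 21.2%. No test set the markers against these shares. Of 12 genes of dividing cells, 2 were lower and 0 higher under salt, and their mean signal was 5.46 to 5.85 on salted against 5.54 to 5.92 on unsalted arrays. Of 6 leaf and photosynthesis genes, 2 were lower and 0 higher, with means of 7.66 to 8.06 against 7.91 to 8.23. Of 15 root genes, 7 were lower and 3 higher, with means of 4.65 to 4.89 on salted and 5.18 to 5.58 on unsalted arrays. Of these, 6 serve nitrate or ammonium transport. A split of the list that was not set in advance left them out. The root means were then 4.98 to 5.30 and 4.91 to 5.31, with 2 lower and 2 higher. The part of organ proportions in the salt effect was not tested.

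Without salt, few of these genes were called between the 3 lines. In F4, 1 of 56 was called in at least 1 of the 3 line comparisons (1.14% of all probe sets), OsIAA26, which read 3.698, 3.450 and 3.752 in NSb against 3.122, 2.946 and 2.830 in C. All NSb pools lay above all C pools, but every one of these signals was below its array median, and the difference of +0.67 (SE 0.107, limma adjusted p = 0.031) was no longer called when any 1 of 8 of the 9 F4 arrays was left out. At an unadjusted p under 0.05 the F4 counts were 11 for Ta minus C (19.6%, all probe sets 11.8%), 13 for NSb minus C (23.2%, all probe sets 13.3%) and 3 for Ta minus NSb (5.36%, all probe sets 7.46%). With all 45 arrays in 1 fit, 5 were called in F4 (8.93%, all probe sets 3.91%).

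In F6 and F8 no auxin response gene was called between lines by limma, whether without salt in F6 (0.0710% of all probe sets), under salt in F6 (0.621%), without salt history in F8 (0.632%) or with it (0.459%). The number with an unadjusted p under 0.05 was 1 to 6 in each comparison without salt (all probe sets 6.0% to 9.76%). With salt history it was 3 to 8 (7.83% to 10.0%). Under salt it was 3 for NSb minus C (5.36%, all probe sets 6.63%) and 5 for Ta minus NSb (8.93%, all probe sets 9.20%). For Ta minus C under salt it was 13 (23.2%, all probe sets 11.6%), of which 12 were higher in Ta. The share of all probe sets higher in Ta at this cut was not computed. With all 45 arrays in 1 fit, 2 were called without salt in F6 (3.57%, all probe sets 2.04%), 4 under salt (7.14%, all probe sets 2.56%) and 1 in F8 without salt history (1.79%, all probe sets 2.05%).

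Salt history left no called change in these genes. Between F8 seedlings with and without salted ancestors, limma called 0 of 56 in any line or on average (0.0692% of all probe sets in at least 1 of these comparisons), and 1 in C, 3 in NSb, 6 in Ta and 6 on average had an unadjusted p under 0.05 (1.79% to 10.7%, against 5.37% to 7.92% of all probe sets). The smallest adjusted p belonged to OsIAA11, the gene with the strongest fall under salt, named here after its values were seen: it read 5.82, 5.87 and 6.0 with salt history against 5.33, 5.55 and 5.60 without in Ta, 5.53, 5.66 and 5.93 against 5.65, 5.53 and 5.29 in NSb, and 5.72, 5.67 and 5.77 against 5.50, 5.42 and 5.22 in C. The pools stood apart in Ta and C and overlapped in NSb. The averaged difference of +0.32 (SE 0.0688) had a limma adjusted p of 0.233. Nor did the effect of salt history differ between lines for any of the 56 in limma's interaction test, a comparison added after the data were seen (0.00364% of all probe sets). At an unadjusted p under 0.05 there were 3, 1 and 2 genes for Ta minus C, NSb minus C and Ta minus NSb, or 5.36%, 1.79% and 3.57% of these genes against 5.07%, 5.77% and 5.92% of all probe sets.

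**Figure D4:**
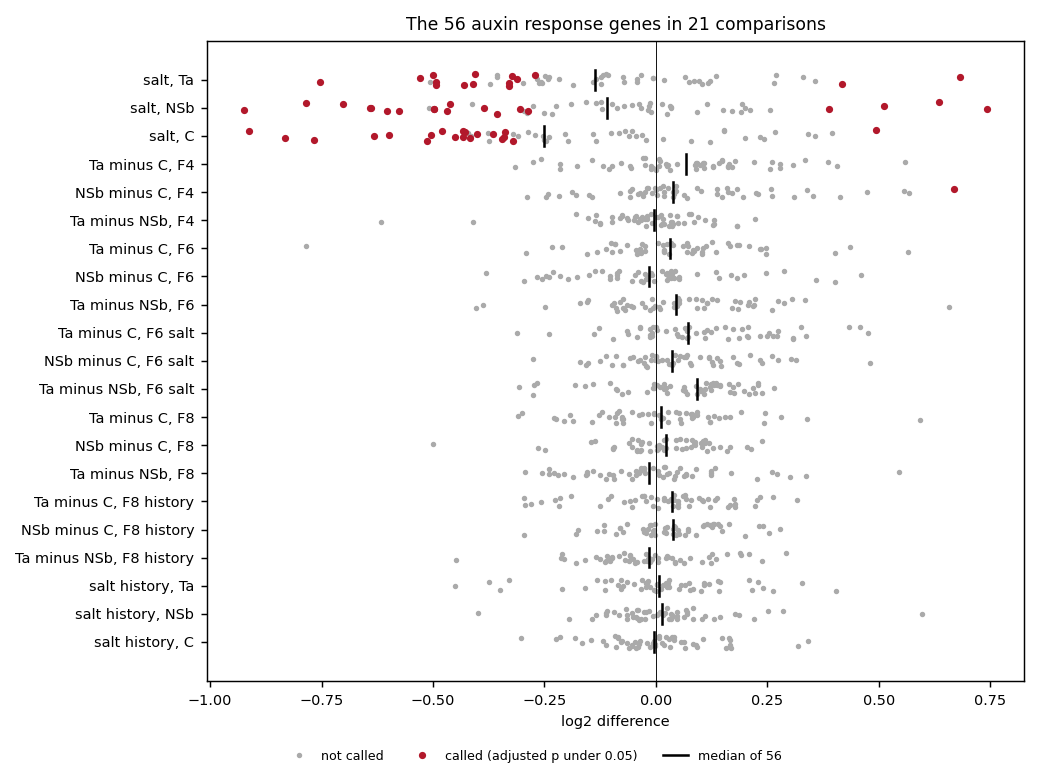
log2 differences of the 56 auxin response genes (horizontal axis) in 21 comparisons (vertical axis): salt within each line, lines within each generation and condition, and salt history within each line. Each point is a gene, red where called; the black bar is the median of the 56. The called genes lie in the salt comparisons at the top, with medians of −0.14 in Ta, −0.11 in NSb and −0.25 in C, apart from OsIAA26 in NSb minus C of F4.

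Line differences that changed between F4 and F8 were called for 2 of the 56 genes (0.774% of all probe sets). For OsIAA26, NSb exceeded C by 0.67 in F4 and by 0.46 in F6, and the difference was −0.50 in F8, a change of −1.17 (SE 0.235, limma adjusted p = 0.0323); in F8 it read 3.07, 3.11 and 2.78 in NSb against 3.43, 3.64 and 3.40 in C, again below the array medians. The F6 difference was itself not called, and neither was the F8 difference (SE 0.133, limma adjusted p = 0.54). In F8 with salt history the pools overlapped, at 3.456, 3.568 and 3.727 in NSb against 2.997, 3.735 and 3.185 in C, and the difference had the opposite sign, +0.28 (SE 0.196, limma adjusted p = 0.727). For OsGH3.2, Ta minus C stood at −0.22 (F4), −0.23 (F6) and +0.59 (F8), a change from F4 to F8 of +0.81 (SE 0.178, limma adjusted p = 0.0382). None of these differences within a generation was itself called. OsGH3.2 read 5.41, 5.63 and 5.49 in Ta against 5.76, 5.63 and 5.78 in C of F4. In F8 it read 6.79, 6.49 and 6.89 in Ta against 6.11, 5.93 and 6.35 in C, and the Ta pools lay above all C pools. In F8 with salt history the lines overlapped, at 6.29, 6.30 and 6.54 in Ta against 6.17, 6.47 and 6.25 in C, with a difference of +0.08 (SE 0.11, limma adjusted p = 0.875). Leaving out 1 of the 27 arrays gave 0 to 3 called genes, with 0 without C replicate 2 or 3 of F4 or C replicate 1 or 2 of F8.

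**Figure D5:**
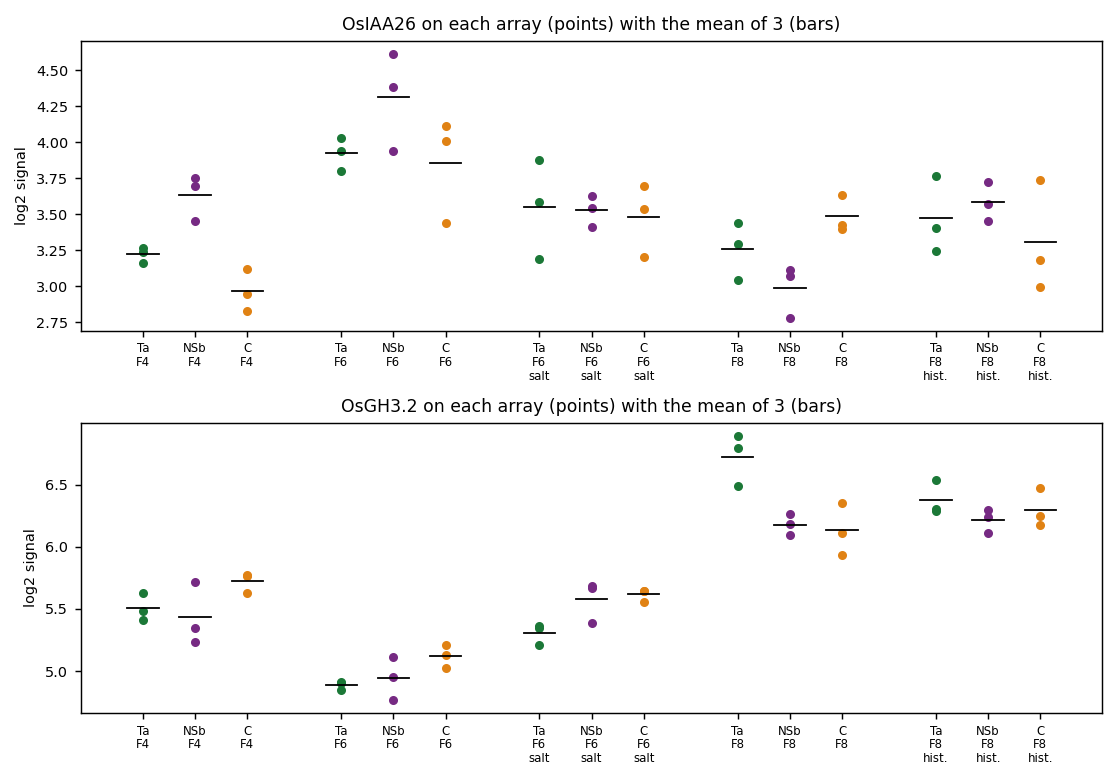
log2 signal of OsIAA26 (top) and OsGH3.2 (bottom) on each array, with bars for the mean of 3 pools, for lines Ta, NSb and C in F4, F6, F6 under salt, F8 and F8 with salt history (horizontal axis); levels are comparable only within a generation. OsIAA26 read 3.45 to 3.752 in NSb against 2.83 to 3.122 in C of F4, and 2.78 to 3.11 in NSb against 3.40 to 3.64 in C of F8. With salt history in F8 the pools overlapped, at 3.456 to 3.727 in NSb against 2.997 to 3.735 in C. OsGH3.2 reached 6.49 to 6.89 in Ta of F8, against 5.93 to 6.35 in C, and overlapped with C with salt history.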

How the data were processed

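Total RNA of whole seedlings was labelled and hybridised to Affymetrix RUSGene 1.1 ST arrays. The authors deposited 1 table of log2 values, background-corrected, normalised and summarised by RMA in Affymetrix Expression Console (version not given in the sources used here); array medians differ between generations, so these appear to have been normalised apart. The log2 values were used as deposited, and all sample columns were mapped by title. Of 54922 probe sets, 24080 have 1 gene symbol, 95 several and 30747 none in the array annotation; rice names come from the RefSeq annotation of assembly ASM3414082v1. The OsICE1 probe set was identified from the study's list of transcripts.

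limma 3.58.1 in R 4.3.3 fitted 1 mean per condition (lmFit, eBayes) to the 18 arrays of F6 for salt, the 9 arrays of each line comparison, the 18 arrays of F8 for salt history and the 27 arrays without salt or salt history for changes between generations, with 2-sided tests and Benjamini-Hochberg adjustment over all probe sets. Data were simulated for the averaged salt effect with 200 of the 54922 probe sets changed. The fit recovered 46% of 1.25-fold, 88% of 1.5-fold and 94% of 2-fold changes. For the effect in C alone it recovered 4%, 62% and 88%. In the data far more probe sets were called, 26.9% for the averaged effect and 9.68% in C. The Benjamini-Hochberg cut is stricter when few probe sets change, so these rates may understate recovery in the data. Tables and figures used Python 3.11.15, pandas 2.3.3 and matplotlib 3.10.9.

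The genes, the lists and the tests were chosen with earlier results of these data known. Named genes were up to 12 called higher and 12 called lower for the averaged salt effect with the largest change, the 2 genes of each family with the largest salt effect, all genes called in the other comparisons, and up to 4 genes of each further auxin list with the smallest p; others are named as chosen after their values were seen. Alternatives were a 3-fold minimum, filters on low signals and on spread (the 10% of probe sets with the highest SD), centring, other variance models, other sets of arrays, a replicate block and leaving out each array.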

Additional observations from a re-analysis of the deposited data

Results flagged for a closer look

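In 2 of these genes a line difference changed between F4 and F8 by a test of the change itself. For OsGH3.2, Ta minus C in F8 minus that in F4 was 0.81 (SE 0.178, limma adjusted p = 0.0382), and for OsIAA26, NSb minus C in F8 minus that in F4 was −1.17 (SE 0.235, limma adjusted p = 0.0323). Without a fold minimum and without the filter on spread, which tested neither gene, 12 of 33 alternatives for OsGH3.2 ended the call, among them the fit to the compared groups alone (adjusted p = 0.113), and for OsIAA26, 9 of 32 did, all of them fits that left out 1 array; none of these turned either direction. A 3-fold minimum ended both calls. With salt history in F8, NSb minus C for OsIAA26 was +0.28 (SE 0.196, limma adjusted p = 0.727), against −0.50 without it (limma adjusted p = 0.54). The signals of OsIAA26 were below the array medians in F4 and F8.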

How the results depend on the processing

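Each of the 17 genes named for the averaged salt effect kept its direction and its call at an adjusted p under 0.05 in the 24 alternatives that had no fold minimum and no filter on spread (23 for OsIAA26, which the filter on low signals left out), and no gene named for any comparison turned direction in such alternatives. The averaged count of 33 was 30 to 34 under the filter on low signals, centring, a trended and robust variance model, the compared groups alone, all 45 arrays in 1 fit and the replicate block, and 32 to 35 with 1 array left out. Adding a 3-fold minimum ended all of these calls and gave 0 called genes in the averaged effect, in C, NSb and Ta, in F4 and for the change from F4 to F8. The filter to the 10% of probe sets with the highest SD kept only OsIAA11 among the salt tests, so that 1 gene was called on average and in each line; it left 0 called in F4 and 0 for the change from F4 to F8.

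Fitting only the groups compared gave 4 in C, 0 in F4 and 1 for the change from F4 to F8. In F4 the count was 3 with the filter on low signals (OsARF9, OsIAA12, OsIAA23), 3 with the trended variance (OsARF9, OsIAA12, OsIAA26) and 0 with the replicate block. The shares of all probe sets called under these 3 settings were not computed. All 45 arrays in 1 fit gave 5 in F4 (8.93%, all probe sets 3.91%), 2 in F6 without salt, 4 in F6 under salt and 1 in F8 without salt history. With 1 array left out the counts were 10 to 19 in C, 14 to 19 in NSb, 6 to 16 in Ta, 0 to 1 in F4 and 0 to 3 for the change from F4 to F8, and 0 in all other comparisons. Same-numbered replicates did not deviate together on average (mean correlation 0.018 in F4, −0.003 in F6 and 0.011 in F8). Single pairs in F6 ranged from −0.224 to 0.277, so the mean does not settle whether the numbers pair the pools. Called genes under the replicate block were 33 on average, 17 in C, 18 in NSb, 14 in Ta, 0 in F4 and 2 for the change from F4 to F8. Signals below the array medians, as in OsIAA26, may be little more than background. In the simulation, where few probe sets changed, changes of the smallest simulated size were rarely recovered within 1 line.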
